A study of Homo sapiens with 3 samples.

Results

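Knockout line 1 of SOX4 was compared with parental Hep3B cells at single CpGs, in 1 kb windows, along chromosomes and at gene starts. Hep3B is a human hepatocellular carcinoma line. SOX4 belongs to the SOX family of transcription factors, which bind DNA through an HMG box. The line, called SOX4 KO #1 in its label, had been made by the authors with CRISPR/Cas9 and was kept in medium with puromycin, and the parental cells were unmodified. These are 2 of the 3 libraries of the series, with 1 library a side. The labels do not say whether line 1 was a single clone, and the edit itself was not checked here. CpGs were taken from autosomes where both libraries had at least 10 reads after the strands were summed. This left 2237478 of the 3122097 autosomal CpGs read in either library. Differences are line 1 minus parental, in percentage points of methylation level (the share of reads that kept a C after bisulfite).

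DNA methylation at CpGs is copied to the new strand after replication by DNMT1 and removed by dilution or by TET enzymes. In most cells CpG-dense islands at gene starts are free of methylation, while scattered CpGs outside them are methylated. Tumour cells commonly lose methylation over CpG-poor stretches and gain it at some islands. SOX4 takes part in stemness and drug resistance of liver cancer cells, and the study looked at methylation to ask how its loss could act on STAT6, the transducer of interleukin-4 signalling.

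The parental library held 104702738 CpG reads and line 1 held 96987706. The compared CpGs had a median of 31 and 28 reads, respectively. Neither side had a replicate, so the tests below compare the reads of a pair of libraries and not the genotypes. The 95% intervals given with pooled reads are Clopper-Pearson (exact); they hold counting error and nothing else, because PCR copies of a molecule are not independent. Pooled reads are summed over CpGs, so a read that covers several CpGs is counted at each of them, and the intervals are too narrow even for counting error.

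Line 1 had less methylation than the parental cells. The mean level over compared CpGs was 42.9% in parental cells and 38.9% in line 1, a difference of -4.06 points with an SD over CpGs of 14.8. The median difference was 0, since 32.6% of CpGs had the same level in both libraries. Of all compared CpGs, 42.5% were lower in line 1 by any amount and 24.9% were higher. A CpG was called when a 2-sided Fisher exact test passed an adjusted p of 0.05 (Benjamini-Hochberg) and the levels lay 25 points or more apart. By this rule 98990 CpGs were called lower (4.42% of those tested) and 13288 higher (0.594%). Lower CpGs thus made up 88.2% of the calls. The share called lower was 2.41% at CpGs with 10 to 19 reads in the shallower library, 4.84% at 20 to 39, 6.51% at 40 to 79 and 6.15% at 80 or more. The mean difference in these classes was -4.11, -3.98, -4.02 and -4.52 points.

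In windows of 1 kb with at least 5 compared CpGs, most levels stayed close to parental and the changed minority was mostly lower. Of 113431 windows, 58.4% differed by under 5 points. A fall of at least 25 points was seen in 4721 windows (4.16%), and a rise of that size in 473 (0.417%). Windows that fell by at least 50 points numbered 302 and those that rose as much numbered 55. A switch from 80% or more to under 20% was seen in 27 windows, and the reverse in 7. Every compared CpG was lower in 60.01% of the lower windows, and every CpG was higher in 68.3% of the higher windows, a direction that the choice of windows by their mean favours. The size of the change still varied within them: the SD of the difference over the CpGs of a window had a median of 21.3 points in lower and 19.04 in higher windows, against 9.40 over all windows. Of the CpGs called lower, 16.3% lay in a lower window, and of those called higher 15.6% lay in a higher window. For comparison, lower windows held 38011 and higher windows 4488 of the 2237478 compared CpGs. The remaining calls were at CpGs outside windows called in their direction, and a window with under 5 compared CpGs could not be called.

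**Figure D1:**
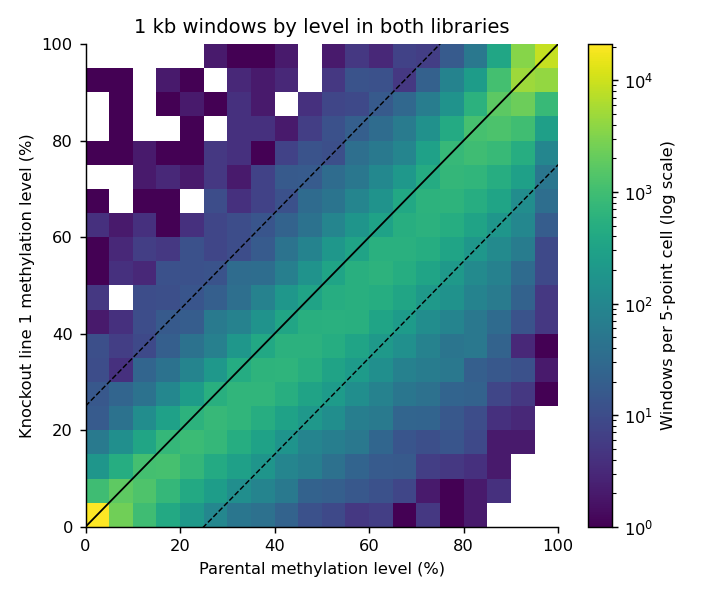
Parental methylation level (horizontal, %) and line 1 level (vertical, %) of 113431 windows of 1 kb, with colour for the number of windows per cell of 5 by 5 points on a log scale; the solid line marks equal levels and the dashed lines a difference of 25 points. Most windows sit at either end of the solid line, and 4721 windows lie below the lower dashed line against 473 above the upper.

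Read number moved with the direction of the difference. The reads of a window in line 1 over those in parental, scaled by all compared reads, had a median of 1.11 in windows that fell by over 50 points and 1.06 in those that fell by 25 to 50 points. The median was 0.983 where the level differed by under 10 points. It was 0.893 in windows that rose by 25 to 50 points and 0.815 in those that rose by over 50. The quartiles overlapped between neighbouring classes, and the part of read number in the differences was not tested.

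To place the differences by CpG density, windows were sorted by the number of CpGs read in them. Sparse windows lost the most. In windows with under 10 CpGs the mean level went from 60.6% in parental cells to 54.7% in line 1, a mean difference of -5.93 points. The mean difference was -4.79 points at 10 to 19 CpGs, -3.56 at 20 to 39, -2.39 at 40 to 59 and -1.71 at 60 or more, where the level went from 18.2% to 16.5%. The share of windows called lower was 6.48% in the sparsest class and 0.386% in the densest. The windows with under 10 CpGs made up 45.6% of all windows and 71.0% of the lower windows. Windows called higher were also rarer with density, from 0.514% to 0.0715%. The spread of the difference over windows narrowed over the same classes, from an SD of 11.4 to 4.82 points, so a fixed difference of 25 points is more easily reached in sparse windows.

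**Figure D2:**
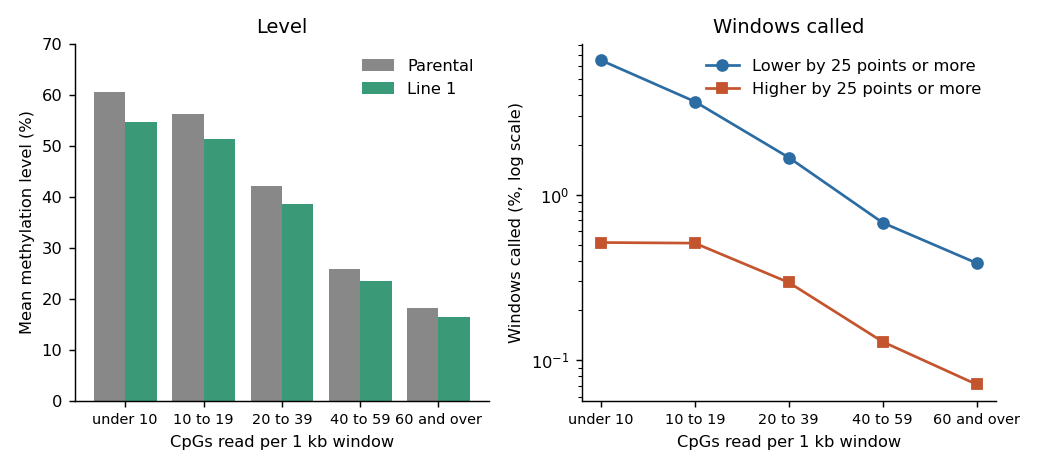
Left, mean methylation level (%) of 1 kb windows in parental cells and line 1, by the number of CpGs read per window; right, share of windows (%, log scale) lower or higher in line 1 by at least 25 points. The share called lower falls from 6.48% to 0.386% with density, and lower windows outnumber higher ones in all 5 classes.

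Dense windows also start from lower levels, so windows were next sorted by their parental level. Windows at 0 to 20% in parental cells differed by a mean of -0.76 points. The mean difference was -6.96 points at 20 to 40%, -10.1 at 40 to 60%, -10.5 at 60 to 80% and -3.67 at 80 to 100%. Intermediate windows therefore lost the most. Choosing windows by the parental value shifts such means, so the level was also taken from alternate CpGs and the difference from the others. It was then -1.13, -7.17, -10.1, -10.02 and -3.47 points in the same order. As a share of the parental level this was a loss of 18.7%, 22.8%, 19.5%, 13.9% and 3.81%. Within the class at 40 to 60%, the mean difference was -11.0 points in windows with under 10 CpGs and -7.65 in those with 60 or more, with 14.7% and 2.79% of windows called lower. Within the class at 60 to 80% the means at these ends were close, at -10.9 and -9.97 points, with 15.9% and 3.41% of windows called lower. At a matched parental level the mean difference thus varied less with density than over all windows, while calls remained more frequent among sparse windows.

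All 22 autosomes had a lower mean level in line 1. The mean difference was smallest on chromosome 22 (-2.87 points), chromosome 19 (-2.88), chromosome 16 (-3.02) and chromosome 17 (-3.29). It was largest on chromosome 21 (-5.09 points, from 48.3% to 43.2%), followed by chromosome 5 (-4.85), chromosome 18 (-4.82), chromosome 6 (-4.77) and chromosome 13 (-4.75). The other 13 autosomes lay from -4.55 on chromosome 8 and on chromosome 10 to -3.91 on chromosome 15. The SD over chromosomes was 0.636 points. The 1 Mb bins of a chromosome had a median SD of 3.45 points, and the standard error of a chromosome's mean over its bins ran from 0.234 points on chromosome 1 to 1.05 on chromosome 21. Differences between chromosomes made up 2.58% of the variance over single bins. Across the 22 chromosomes the mean difference went with the median number of compared CpGs per bin (Spearman's rho of 0.749, a description over points that share both libraries). In windows with under 10 CpGs alone, means still ran from -7.39 points on chromosome 21 to -4.17 on chromosome 22.

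Reads per chromosome also differed between the libraries. With the median chromosome at 1, line 1 had a read dosage relative to parental of 1.34 on chromosome 11, 1.16 on chromosome 1, 0.870 on chromosome 8, 0.854 on chromosome 13 and 0.781 on chromosome 21. Chromosome 21 had both the lowest dosage and the largest loss, whereas chromosome 11, with the highest dosage, differed by -4.06 points, equal to the mean of all CpGs. Over the 22 chromosomes, rho between dosage and difference was 0.204, while over 2449 bins of 1 Mb it was -0.208. Within some chromosomes the dosage was not uniform. Neighbouring 1 Mb bins held similar values over long stretches of several chromosomes, among them 1, 2, 3, 9 and 11, with a step between stretches. Bins with at least 100 compared CpGs ran from 0.482 on chromosome 9, whose whole-chromosome dosage was 0.954, to 1.76 on chromosome 11. Whether a gain or loss of chromosome copies or a change in capture lay behind these steps was not tested.

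On the scale of 1 Mb, loss was nearly everywhere but uneven in size. Of 2449 bins with at least 100 compared CpGs, 27 (1.102%) had a higher mean level in line 1. The bins had a mean difference of -5.01 points with an SD of 3.68, and ran from -32.5 to 9.09 points. A loss of at least 10 points was seen in 182 bins and of at least 20 points in 18. At least 1 lower window was found in 1657 bins and at least 1 higher window in 303. Bins with few CpGs lost more: the mean was -7.60 points with at least 100 but under 250 compared CpGs and -3.12 with 2000 or more. Adjacent bins were only weakly alike, with Pearson's r of 0.185 and Spearman's rho of 0.179 over 2244 pairs, and r of 0.105 over 1530 pairs when windows with under 20 CpGs were used alone. Bins share the libraries and their spread depends on the number of CpGs, so these are descriptions. By read dosage, bins under 0.8 had a mean of -5.73 points, bins from 0.8 to 0.9 a mean of -5.03, bins from 0.9 to 1.1 a mean of -4.80, bins from 1.1 to 1.2 a mean of -7.15 and bins of 1.2 or more a mean of -5.32. These classes also differed in coverage, with a median of 276 compared CpGs a bin at 1.1 to 1.2 and 698 at 0.9 to 1.1.

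**Figure D3:**
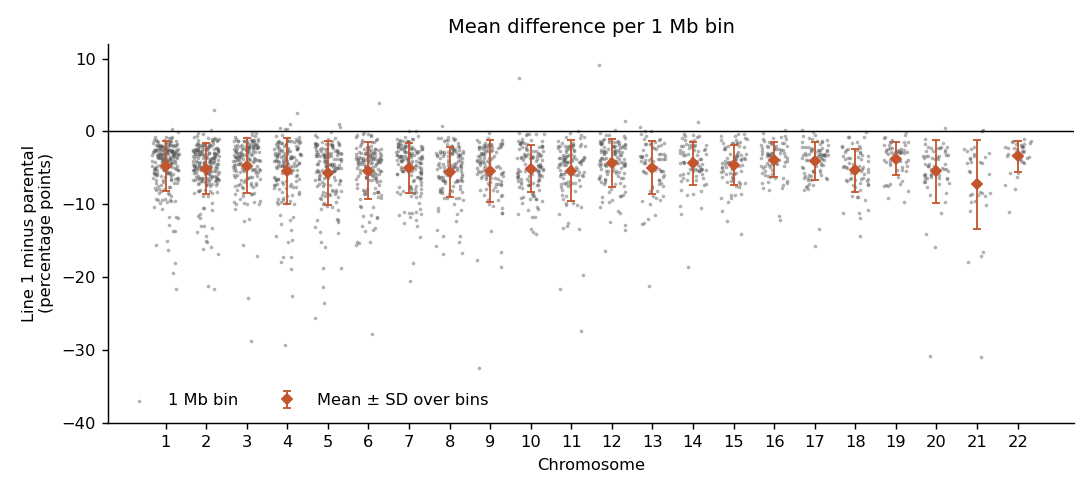
Mean difference in methylation level (line 1 minus parental, percentage points) of each 1 Mb bin with at least 100 compared CpGs, by chromosome; diamonds and bars give the mean and SD over the bins of a chromosome. Bins run from -32.5 to 9.09 points, 27 of 2449 lie above 0, and the SD bars of all chromosomes overlap.

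The 5 bins with the largest loss were thinly covered. On chromosome 9 from 8 to 9 Mb, 110 CpGs went from a mean of 76.8% to 44.3%, with 44 CpGs called lower and 0 higher, although 0 of its 2 windows were lower. On chromosome 21 from 26 to 27 Mb, the bin that holds MRPL39 (a mitochondrial ribosomal protein), 271 CpGs went from 65.2% to 34.2%, and 4 of 7 windows were lower. The bins at 15 to 16 Mb of chromosome 20, 145 to 146 Mb of chromosome 4 and 21 to 22 Mb of chromosome 3 held 154 to 188 CpGs each and differed by -30.9, -29.4 and -28.8 points. In these 5 bins together 0 CpGs were called higher. The losses spread over many CpGs of a bin, as the median differences of -16.7 to -29.4 points show. Read dosage in these bins was 0.562, 0.799, 1.18, 0.983 and 1.33 in the order given, and its part was not tested.

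The 5 bins with the largest gain changed by less than those with the largest loss, and their median difference over CpGs was 0, as over all compared CpGs. The bin at 99 to 100 Mb of chromosome 12 went from 20.5% to 29.6% over 354 CpGs, with 56 CpGs called higher and 6 lower, and it holds ANKS1B, a scaffold protein with ankyrin repeats, and APAF1, which forms the apoptosome. The bin at 128 to 129 Mb of chromosome 10 differed by 7.39 points, with 50 CpGs higher and 12 lower. The bin at 21 to 22 Mb of chromosome 6, which holds SOX4 itself, differed by 3.87 points, with 99 CpGs higher and 11 lower. The bin at 237 to 238 Mb of chromosome 2, with GBX2 and COPS8, differed by 2.98 points and had 9 higher windows and 1 lower. The bin at 6 to 7 Mb of chromosome 4 differed by 2.57 points. It had 21 higher windows and 0 lower among 154, the most higher windows of any bin, and holds WFS1 (wolframin, of the endoplasmic reticulum) and PPP2R2C (a regulatory subunit of protein phosphatase 2A).

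Calls at neighbouring CpGs went together over short distances. After a CpG called lower, the next compared CpG was also called lower in 42.6% of pairs at 2 to 10 bp, in 26.6% at 51 to 100 bp and in 18.7% beyond 500 and up to 1000 bp. After any CpG the share at these distances was 2.80%, 7.003% and 4.39%. After a CpG called higher, the next was called higher in 31.3%, 17.4% and 10.6% of pairs at the same distances, against 0.486%, 0.772% and 0.549% after any CpG. The excess did not vanish with distance: over 10 kb apart, the next CpG was called lower in 21.9% of pairs after a lower one, against 7.52% after any. The next CpG was called in the opposite direction in at most 0.522% of pairs after a lower CpG, at 51 to 100 bp, where 0.772% were higher after any CpG. After a higher CpG it was lower in at most 5.22% of pairs, beyond 10 kb, where 7.52% were lower after any. At 2 to 10 bp these shares were 0.166% (0.486% after any) and 0.795% (2.80% after any). Pearson's r of the differences of neighbouring CpGs was 0.554 at 2 to 10 bp (821355 pairs) and 0.203 beyond 10 kb (68365 pairs). Close CpGs can lie on the same reads, and all pairs share both libraries.

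**Figure D4:**
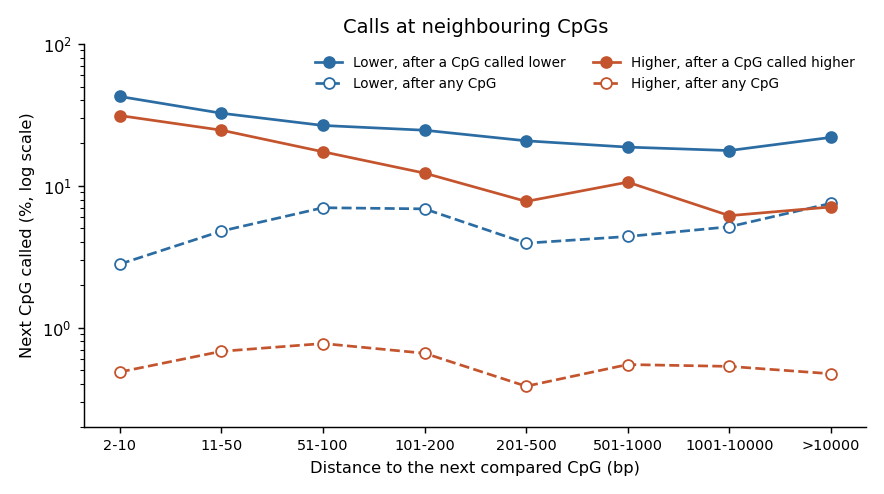
Share of next compared CpGs called (%, log scale) by their distance from the first CpG (bp), after a CpG called in the same direction (filled points) and after any CpG (open points), for falls and rises in line 1. The filled points start at 42.6% for falls and 31.3% for rises and stay above the open points in all 8 distance classes.

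Runs of called CpGs, unbroken and with neighbours at most 500 bp apart, were mostly short. The 98990 CpGs called lower formed 70980 runs, and 53.8% of these CpGs stood alone. Of the 13288 CpGs called higher, in 10269 runs, 65.1% stood alone. Runs of at least 3 CpGs held 22.04% of lower and 18.5% of higher CpGs. For long runs the order turned: runs of at least 10 CpGs held 1.11% of lower CpGs (80 runs) and 3.84% of higher CpGs (32 runs). The difference between these shares was not tested. Of the runs with at least 20 CpGs, 10 were lower and 5 higher.

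The longest lower run, with 37 CpGs, lay at chr15:75018978-75019605 (GRCh37), 1109 bp upstream of CYP1A1. CYP1A1 is a cytochrome P450 that oxidises aromatic hydrocarbons and is induced through the aryl hydrocarbon receptor. Of its pooled reads, 86.6% were methylated in parental cells (95% interval 85.2% to 87.8%) and 20.5% in line 1 (19.1% to 21.99%). The next, with 30 CpGs at chr5:140855775-140856210, began 242 bp downstream of the start of PCDHGC3, a gamma protocadherin of cell adhesion, and went from 67.5% (64.8% to 70.2%) to 4.33% (3.32% to 5.54%). The third, also with 30 CpGs, at chr6:27839802-27840055, lay 1257 bp downstream of the start of H4C13, a gene for histone H4. It went from 53.1% (50.9% to 55.3%) to 12.4% (11.2% to 13.8%). Genes named with runs are those of the nearest placed start, and a closer start may exist that was not placed. Since runs were built from CpGs that had each been called, the gap between the libraries is a description.

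The longest run of all was a rise of 66 CpGs at chr6:21588090-21588969, whose near end lay 5013 bp upstream of SOX4. In parental cells 1 of 6060 reads, summed over the CpGs, was methylated (0.0165%, interval 0.000418% to 0.0919%), and in line 1 1568 of 3876 (40.5%, 38.9% to 42.0%). All 66 CpGs were called higher, and their levels in line 1 ran from 26.3% to 55.2%, with 17 to 86 reads each, against 45 to 141 in parental cells. The highest Fisher exact adjusted p among them was 0.00573. The reads fell in number as well, to 0.640 of the parental number. All reads of line 1 in the run came from the complementary strand, as did 6045 of the 6060 parental reads; over the whole libraries this strand carried 86.8% and 87.0% of reads. Between the run and the start of the gene, 20 further CpGs of 34 were called higher and 1 lower. On the far side of the run, most CpGs from -6216 to -6048 bp were called higher as well. The CpGs between these and the run, at -5925 to -5910 bp, also rose but were not called, with 14 or 15 reads in line 1.

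The start of SOX4 itself stayed near 0 in both libraries. Over the 21 CpGs within 500 bp of it, 4 of 1374 parental reads were methylated (0.291%, 0.0794% to 0.744%) and 12 of 1405 in line 1 (0.854%, 0.442% to 1.49%), and 0 CpGs were called. Downstream, from 848 to 3059 bp, 104 CpGs had 0.284% of reads methylated in parental cells and 0.201% in line 1. Read numbers there were 1.02 and 1.04 times the parental. SOX4 was knocked out by a targeted edit whose position was not analysed here, and the part of the edit or of the read number in this rise was not tested.

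**Figure D5:**
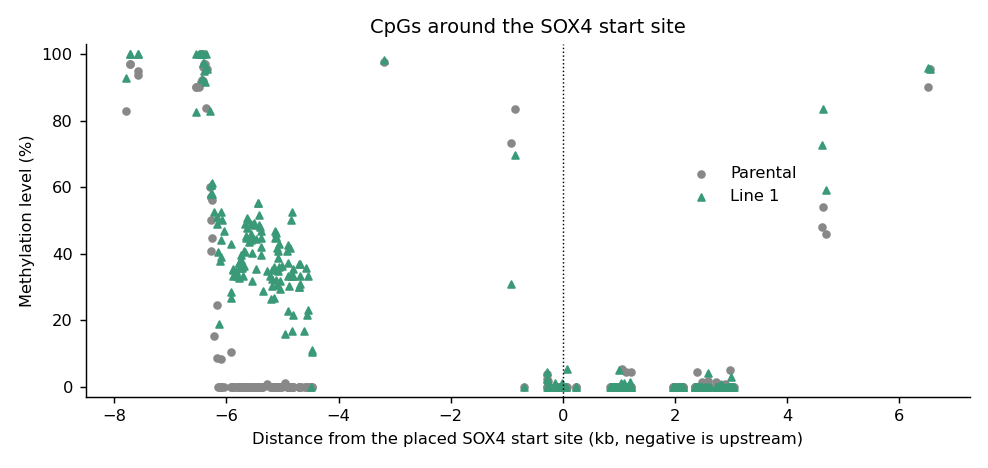
Methylation level (%) of single CpGs in parental cells (circles) and line 1 (triangles) by distance from the placed SOX4 start site (kb, negative is upstream). The CpGs of the run, from -5892 to -5014 bp, lie at or near 0% in parental cells and between 26.3% and 55.2% in line 1, while those within 500 bp of the start site stay near 0% in both.

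The next longest rises, with 22 CpGs each, were more complete. At chr5:139040572-139040978, 22 CpGs about 10 kb downstream of the start of CXXC5 went from 19.8% (16.6% to 23.3%) to 95.5% (92.9% to 97.4%). CXXC5 has a CXXC zinc finger, a domain known to bind unmethylated CpGs. At chr19:1168830-1169139, 22 CpGs at the start of LOC102725180, an uncharacterised locus, went from 55.1% (52.7% to 57.5%) to 94.1% (92.4% to 95.5%). Line 1 had 377 reads against 586 in the first of these and 948 against 1653 in the second.

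Most changed windows had no close neighbour of their kind, but neighbours that could be compared shared a call more often than other windows. The median distance to the nearest other window of the same direction was 70 kb for lower and 369 kb for higher windows, against 2 kb between neighbouring compared windows of any kind; these distances follow the number of windows in each class. The lower quartile of the distance was 16 kb for lower and 13 kb for higher windows. Another lower window lay within 10 kb for 20.4% of lower windows, and another higher window for 24.7% of higher windows. Since higher windows are the rarer class, the next compared window was examined as well. Where it lay 1 kb on, it was also lower after 18.8% of lower windows (2.28% after any), and also higher after 24.2% of higher windows (0.328% after any). Beyond 100 kb the shares were 20.2% for lower windows (8.07% after any) and 1 of 15 for higher windows. The share after a lower window was thus similar at both distances while the share after any window rose. Pearson's r of the differences of successive windows fell from 0.404 at 1 kb (30461 pairs) to 0.185 beyond 100 kb (5511 pairs), a description over pairs that share both libraries.

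Some changed windows did form clusters, with at most 10 kb between starts. The lower windows made 4191 clusters, of which 3759 were single windows and 73 held 3 or more. The largest, at chr17:2798001-2846000, had 10 of 10 compared windows lower, from a mean of 65.0% to 23.1%, and holds a start of RAP1GAP2, a GTPase-activating protein for the small GTPase Rap1. The next, at chr6:112668001-112699000 around RFPL4B, had 6 of 6 windows lower, from 75.9% to 42.7%. The third, at chr7:156001-177000, had 5 of 8 windows lower and 0 higher. The higher windows made 402 clusters, of which 12 held 3 or more. The 3 largest all lay between 6344001 and 6466000 on chromosome 4, between the placed starts of WFS1 and PPP2R2C. They had 7, 5 and 5 windows, all compared windows of each being higher, and went from 26.1% to 75.1%, from 28.8% to 78.8% and from 31.0% to 80.5%.

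The largest single rise was at chr17:75422001-75423000, 20.8 kb downstream of a start of SEPTIN9, a cytoskeletal GTPase. There 6 of 166 reads were methylated in parental cells (3.61%, 1.34% to 7.70%) and 106 of 112 in line 1 (94.6%, 88.7% to 98.0%), and 8 of 8 CpGs were called higher. The window before it, from 75421001, was the fourth largest rise, from a mean of 15.9% to 92.8%. The second, at chr4:6426001-6427000, went from 7.17% to 92.7% over 5 CpGs, and the third, at chr5:139049001-139050000, from 7.43% to 89.5% over 16 CpGs, 18.4 kb downstream of the start of CXXC5. The fifth, at chr20:10651001-10652000, went from 3.19% to 78.9% over 11 CpGs and lay 2.6 kb downstream of the start of JAG1, a ligand of Notch receptors.

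The largest fall was at chr21:28821001-28822000, over 1 Mb from the nearest placed gene start. There 314 of 371 reads were methylated in parental cells (84.6%, 80.6% to 88.2%) and 4 of 262 in line 1 (1.53%, 0.418% to 3.86%). The second, at chr18:69139001-69140000, had the most CpGs of these windows. All 19 were called lower, from a mean of 89.7% to 7.55%, with parental CpGs from 55.3% to 100% and line 1 CpGs from 2.70% to 11.8%, so the libraries did not overlap. The third, at chr5:166594001-166595000, went from 87.5% to 5.88% over 6 CpGs. The fourth, at chr12:133043001-133044000, went from 88.8% to 9.49% over 5 CpGs, 38 kb upstream of FBRSL1. The fifth, at chr14:34407001-34408000, went from 87.0% to 9.61% over 8 CpGs, 12.3 kb downstream of the start of EGLN3, a prolyl hydroxylase of the hypoxia response. The first 3 of these windows were more than 1 Mb from any placed start, whereas the 5 largest rises lay between 2.6 and 130.3 kb from their nearest. The placed starts cover 10750 genes, so a closer start may exist that was not placed.

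Promoters of RefSeq genes, from 250 bp before to 50 bp after a start, were placed on the deposited positions by the spacing of their CpGs, and 11565 promoters of 10102 genes could be compared. They are a part of the 35116 promoters listed, all with at least 6 CpGs. Of these 11565, 77.0% were under 10% in parental cells and so had little methylation to lose. The median difference was -0.06 points, and 83.9% differed by under 5 points. A fall of at least 25 points was seen in 154 (1.33%) and a rise in 16 (0.138%). Of the 8906 promoters under 10% in parental cells, 6 reached a mean of 25% or more in line 1, namely SHC1, ETFB, SLC1A5, LIMCH1-AS1, a promoter of HOXA3 and MYLK3. In HOXA3, though, 2 of 7 CpGs were called and pooled reads gave 21.4% in line 1, and in MYLK3 1 of 6 CpGs was called. Of the 887 promoters at 80% or more, 11 fell below 50%. Windows with a placed start were called lower less often than others, 1.32% against 4.43%, but they are denser and less methylated. Among windows with under 10 CpGs the shares were 7.43% (31 of 417) and 6.47%, and at 10 to 19 CpGs 4.12% and 3.63%. In denser windows the order turned. The shares were 1.43% and 1.71% at 20 to 39 CpGs, 0.377% and 0.799% at 40 to 59, and 0.268% and 0.473% at 60 or more. The number of such windows with a start that were called lower was small, at 33, 11 and 8, and these differences were not tested.

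Among the rises, SHC1, an adaptor of receptor tyrosine kinases, went from a mean of 2.62% (CpGs from 2.38% to 3.03%) to 61.4% (41.4% to 77.4%), and 5 of 5 CpGs were called. The ranges of the libraries did not overlap. ETFB, a subunit of the electron transfer flavoprotein of mitochondria, went from 6.55% to 60.3%, with 7 of 8 CpGs called. SLC1A5, the glutamine transporter, went from 3.58% to 34.9%, with 5 of 9 CpGs called. These are starts inside their genes' RefSeq models, which have another listed start further upstream. The largest rise, from 29.4% to 96.7% with 12 of 13 CpGs called, was at LOC124902946, a long noncoding RNA whose start lies inside STAT6 in the RefSeq gene table. The 250 bases before this start, at chr12:57504255-57504504 (GRCh37), lie in the stretch around STAT6 exon 1 shown in the paper. There the paper reports more methylation in SOX4 knockout cells than in wild-type cells. Both readings use this series. GDNF (a neurotrophic factor), TNFRSF6B (a decoy receptor for Fas ligand), TP73 (of the p53 family) and NPC1L1 (which takes up cholesterol) rose by 39.6, 32.6, 32.2 and 31.5 points, although in TP73 1 of 8 CpGs passed the test.

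Among the falls, KCNIP4, which binds potassium channels, went from 83.4% (69.1% to 100%) to 17.8% (6.67% to 33.3%), with 7 of 7 CpGs called. OXCT1, the transferase that lets tissues use ketone bodies, went from 78.6% to 16.9%, with 20 of 25 CpGs called. SIX2, a homeobox factor, went from 85.6% to 28.8%, and its ranges of 71.4% to 94.1% and 21.7% to 55.6% did not overlap. PLBD1, of the phospholipase B family, went from 88.0% to 33.02%, with 9 of 9 CpGs called. EDNRA, the endothelin A receptor, went from 69.1% to 18.5%, with 8 of 8 CpGs called. PCDH15 (a protocadherin of the inner ear), LTBP1 (which binds latent TGF-beta), LOC102725258, SGIP1 and SAMSN1 had differences of -58.6 to -48.9 points. Levels of RNA were not measured in these libraries.

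The 250 bases before the start are shown for 1 promoter that rose, NPC1L1, and for 4 that fell, as examples of where called CpGs lie within a promoter. Each is the most upstream start listed for its gene, which holds for some of the promoters not shown as well. Sequences are those of RefSeq (GRCh38.p14), 5′ to 3′ on the strand of the gene, and capitals mark CpGs that were called. Positions are those to which the CpG spacing matched in GRCh37: chr7:44580930-44581179 for NPC1L1, chr5:41870528-41870777 for OXCT1, chr2:45236592-45236841 for SIX2 and chr12:14720818-14721067 for PLBD1, all on the minus strand, and chr4:148401999-148402248 on the plus strand for EDNRA. Bases other than CpGs were not compared between the builds.
NPC1L1: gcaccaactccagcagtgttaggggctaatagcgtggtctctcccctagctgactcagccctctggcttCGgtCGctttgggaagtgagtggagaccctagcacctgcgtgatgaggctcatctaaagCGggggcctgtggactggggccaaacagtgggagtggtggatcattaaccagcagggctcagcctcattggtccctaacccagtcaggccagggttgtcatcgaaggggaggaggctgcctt
OXCT1: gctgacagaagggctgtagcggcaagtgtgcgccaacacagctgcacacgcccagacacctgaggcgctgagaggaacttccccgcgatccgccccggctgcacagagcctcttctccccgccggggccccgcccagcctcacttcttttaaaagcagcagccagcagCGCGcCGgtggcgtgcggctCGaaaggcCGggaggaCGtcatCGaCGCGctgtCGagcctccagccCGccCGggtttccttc
SIX2: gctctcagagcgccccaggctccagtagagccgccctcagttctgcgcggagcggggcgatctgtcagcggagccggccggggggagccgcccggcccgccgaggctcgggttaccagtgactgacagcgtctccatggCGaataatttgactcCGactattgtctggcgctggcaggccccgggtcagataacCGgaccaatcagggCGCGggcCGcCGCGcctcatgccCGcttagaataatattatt
PLBD1: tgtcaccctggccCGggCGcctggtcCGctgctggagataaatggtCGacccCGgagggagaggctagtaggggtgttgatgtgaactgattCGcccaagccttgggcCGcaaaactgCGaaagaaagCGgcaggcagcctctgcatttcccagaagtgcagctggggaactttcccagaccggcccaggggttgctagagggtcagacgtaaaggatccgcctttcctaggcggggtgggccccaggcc
EDNRA: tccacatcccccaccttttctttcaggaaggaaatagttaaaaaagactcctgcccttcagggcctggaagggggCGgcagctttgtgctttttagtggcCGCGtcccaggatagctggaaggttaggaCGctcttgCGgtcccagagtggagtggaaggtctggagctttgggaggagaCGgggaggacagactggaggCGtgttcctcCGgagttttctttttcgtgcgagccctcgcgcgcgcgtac

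In these stretches, 3 of the 6 compared CpGs of NPC1L1 were called higher. In OXCT1, 12 of 16 compared CpGs were called lower, and they sat in the part next to the start. Of the 25 CpGs of this stretch, 9 had too few reads to be compared, so lower-case CpGs there are not CpGs without a change. In SIX2, 9 of 12 compared CpGs were called and 14 of 26 were not compared. In PLBD1 all 9 compared CpGs of 13 were called, and in EDNRA all 8 compared CpGs of 15.

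The genes behind the question of the study were covered in part. Of 8 genes of the folate cycle, 6 had a compared promoter (7 promoters in all), and 0 were called. With 1.33% lower and 0.138% higher over all promoters, a count of 0 among 7 is near the background and is no result about these genes. MTHFD2, the mitochondrial dehydrogenase of this cycle, was at 0.653% in parental cells and 0.239% in line 1. TYMS, thymidylate synthase, was at 0% and 0.0795%, SHMT1 at 0.147% and 0.104%, SLC19A1, the folate carrier, at 0.618% and 1.13%, and MTHFD1 at 3.79% and 0.0926%. MTHFD1L had the highest level of the list in line 1, at 8.14% from 0.408%, with 0 CpGs called. Of 8 genes for hepatocyte products, TF (transferrin) and SERPINA1 (alpha-1 antitrypsin) had compared promoters, at 0.169% and 1.43% in parental cells and 0% and 5.93% in line 1, so this list could hardly serve to check the cell type. The median difference was 0.0795 points over the folate promoters, against -0.06 over all promoters compared.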

How the data were processed

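DNA methylation was measured by bisulfite sequencing of DNA captured with an EPIC probe set, in 1 parental library and 1 library of SOX4 knockout line 1; the library of the other knockout line was not used here. The deposited files give read counts per cytosine and strand (total, in CpG context, methylated) without normalization, and the authors' methylation level as a fraction, which equalled methylated over context reads. The genome is GRCh37 (hg19) by the submitters' processing notes; the aligner, caller and treatment of PCR duplicates are not given in the sources used here. The parental sample was identified by its treatment label and the knockout lines by their titles.

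Strands were summed, and autosomal CpGs with at least 10 reads in both libraries were kept. CpGs were compared by a 2-sided Fisher exact test (Benjamini-Hochberg over all CpGs) and 25 points, windows of 1 kb (at least 5 CpGs) by 25 points with no test. Window density counts CpGs read in either library. Bins of 1 Mb needed 100 CpGs. Total depths and intervals are given with the results. Named were the 5 largest window changes, the 5 lowest and highest bins and the 3 longest runs in each direction.

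No annotation of GRCh37 was used here. RefSeq promoters were therefore placed by CpG spacing (at least 6 matching CpGs and 80% of a promoter's CpGs, no extra CpG, 1 place only), a step chosen after the files had been seen, as were the read ratios, the clusters and the 10 largest promoter changes. Of 35116 promoters, 23292 had 6 CpGs and 13156 were placed once; of 12664 on autosomes, 12661 fell on the chromosome of the table and were kept. No promoter listed under STAT6 itself was placed, whereas that of LOC124902946, whose start lies inside STAT6, was. The comparison, gene lists and rules were chosen with earlier results of these data known. Functions were tested on simulated data. Software was scipy 1.17.1, numba 0.67.0, pandas 2.3.3, numpy 2.4.6 and matplotlib 3.10.9 under Python 3.11.15. Alternatives covered read minimum, difference, adjusted p, thinning, strand, window size and offset, weighting and gap.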

Additional observations from a re-analysis of the deposited data

How the results depend on the processing

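The 26 results were recomputed with 72 alternative values. Of these, 37 lay within a 95% interval of the main value or, for counts, within 1.5 times it. The other 35 moved further and 0 reversed. Only mean differences could reverse, since counts and shares cannot change sign. The intervals held counting error for means over CpGs, and the spread over windows or bins for the other values. Lower calls made up 88.0% to 89.9% of called CpGs over 8 settings and 84.6% to 91.9% of called windows over 9. No paired analysis was possible because each side has 1 library, and for the same reason no replicate could be left out.

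A minimum of 20 reads left 246 higher and 2536 lower windows and a mean difference of -4.04 points; read weighting gave -4.12. At 10 points there were 2618 higher and 24462 lower windows and 122 and 924 promoters. At 50 points there were 4198 higher and 37470 lower CpGs, 55 and 302 windows, and 4 and 7 promoters, and the nearest changed window was at a median of 1736 kb (higher) and 1477 kb (lower), with another lower window 1 kb away for 1.99%. These follow the threshold by construction. The promoter settings were chosen after seeing the data. An adjusted p under 0.01 gave 8225 higher CpGs. At least 10 CpGs a window left 132 higher and 873 lower.

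With density as the count of compared CpGs, the share lower was 6.20% under 10 CpGs and 0.0605% at 60 or more. With the parental level from alternate CpGs, differences were -1.13, -7.17, -10.02 and -3.47 points at 0 to 20%, 20 to 40%, 60 to 80% and 80 to 100%. Means over windows were -5.56 points on chromosome 21, -3.57 on chromosome 22 and -5.28 over bins, with 2.27% of bins above 0; windows with under 20 CpGs gave -6.57 over bins. A difference of 25 points alone gave 1518 higher and 13050 lower runs of 3 or more CpGs. Counted over next compared windows 1 kb away, 24.2% of higher and 18.8% of lower windows had a changed neighbour, against 9.51% and 5.19% over all windows. The cause of these moves was not tested.

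Depth limits calls at single CpGs: 2.41% were called lower at 10 to 19 reads and 6.15% at 80 or more, where the mean difference was also larger (-4.52 points against -4.11). With 1 library a side, differences between genotypes, between cultures and between library preparations cannot be told apart.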
